A study of Oryza sativa Japonica Group with 4 samples.

Results

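BC1 (LOC4333114), BC1L6 (LOC4343844) and BC1L9 (LOC4349011) are 3 rice genes of the COBRA-like family, here followed in the lamina joint, the hinge that joins the leaf's blade to its sheath and sets the leaf angle. Their probe sets were found by gene symbol or synonym in the platform's probe-gene table and the RefSeq gene table, taking only probe sets paired with a single gene. This gave 4 probe sets of 57381 on the array and 3 of the 17905 genes that have a probe set of their own. BC1 and BC1L6 each had 1 probe set and BC1L9 had 2. The synonym BC1 is also held by a second gene, bHLH081 (LOC4347540), a basic helix-loop-helix transcription factor that is no COBRA-like gene, so its probe set was kept apart and its values are given at the end of the account of BC1.

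COBRA-like proteins are plant proteins that are held at the outer face of the plasma membrane by a glycosylphosphatidylinositol anchor. The founding member, COBRA of Arabidopsis, is known for oriented cell expansion and cellulose deposition. In rice, BC1 (BRITTLE CULM1) is known from a mutant whose culms snap easily, with less cellulose in the secondary walls of sclerenchyma, and its product binds cellulose. BC1L6 and BC1L9 are named for their likeness to BC1.

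Total RNA of lamina joints at the tillering stage was measured on a 1-colour array, Affymetrix's Rice Genome Array, with 2 arrays of the mutant ila1 and 2 arrays of its wild type, the japonica cultivar Zhonghua11 (ZH11). The mutant is known for a wide leaf angle, and its affected gene belongs to the Raf-like kinases, which stand at the head of MAP kinase cascades. The labels name neither the allele nor the number of plants behind an array. The ILA1 gene was in none of the lists looked up here, so the genotype was not checked on the arrays. The comparison addresses how transcript levels in this hinge depend on the mutation.

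Signals are linear intensities, and median signal lay at 53.6 on both ila1 arrays and at 56.0 and 57.9 on the ZH11 arrays. Log2 signals correlated at 0.983 between the ila1 arrays and at 0.995 between the ZH11 arrays across all probe sets, taken as a description since probe sets are not independent replicates. LG1, the squamosa-promoter factor that rice needs for ligule and lamina joint, read 318 and 234 in ila1 and 312 and 340 in ZH11 (limma adjusted p = 0.393), and the lamina joint gene BU1 read 139.5 and 184 against 188 and 208 (limma adjusted p = 0.303). LG2, the third gene of the joint marker list with a probe set, read 23.1 or less on all 4 arrays and was too low to be tested. Of 34354 probe sets tested with limma, 15.2% had an adjusted p under 0.05, 4.77% being higher and 10.4% lower in ila1. Precision is limited by having 2 arrays per genotype, and the tests measure only the spread between these samples. The labels call them biological replicates and do not say how their plants were grown or set apart. Because whole lamina joints were sampled, fewer cells of a type and less RNA per cell cannot be told apart.

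BC1L6 and BC1L9 were several-fold lower in ila1, and BC1 was not. BC1L9 fell 6.13-fold on its probe set S1 and 4.72-fold on its probe set S2, BC1L6 fell 6.88-fold with a much wider interval, and BC1 read 1.19-fold the wild-type level, a difference that did not pass the test. So 3 of the 4 probe sets, reading 2 of the 3 genes, were called, all lower, where 10.4% of all tested probe sets were called lower.

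**Figure D1:**
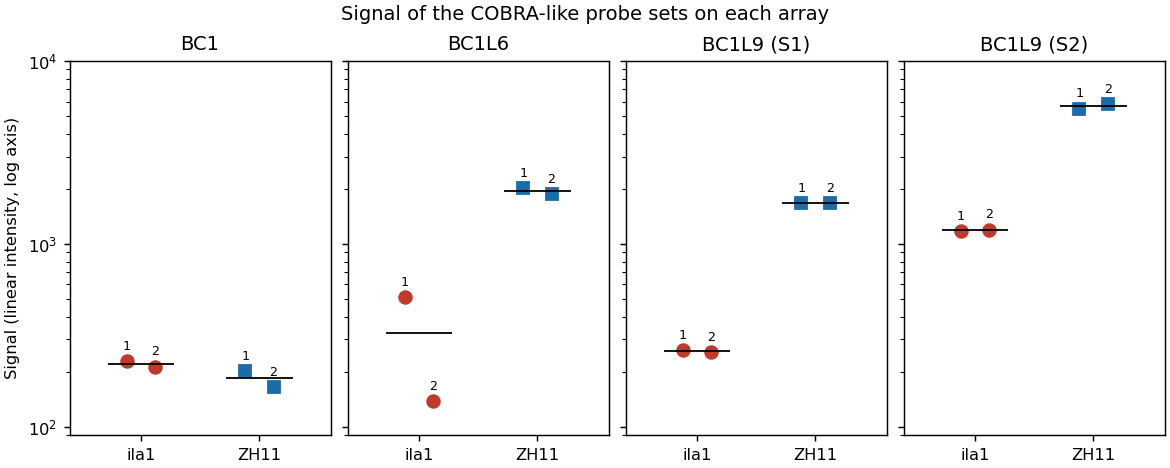
Signal (linear intensity, log axis) of the 4 COBRA-like probe sets on each array, ila1 as circles left of ZH11 as squares; the number beside a point is the replicate and the bar is the mean of 2 arrays. Both probe sets of BC1L9 are tight within a genotype and lower in ila1, BC1L6 is lower in ila1 with its ila1 arrays at 512 and 137, and BC1 lies between 165 and 229.6 on all arrays.

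BC1L9 was read by 2 probe sets, here called S1 and S2 after the endings of their names, which the annotation ties to different cDNA records of the gene. S1 read 263 and 257 on the ila1 arrays, against 1676 and 1671 on the ZH11 arrays. S2 read 1171 and 1198 on the ila1 arrays, against 5499.6 and 5807 on the ZH11 arrays. On both probe sets the ila1 arrays were the low ones and the genotypes did not overlap, as was the case, with ila1 lower, for 40.6% of all tested probe sets. In all 4 pairings of the genotypes' arrays the difference was at least 2-fold on both, which held for 4.29% of tested probe sets with ila1 lower.

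In means, S1 stood at 259.8 ± 4.50 in ila1 and 1674 ± 3.31 in ZH11, and S2 at 1184 ± 18.9 and 5653 ± 217 (SD, n = 2 each). The log2 fold change was -2.62 ± 0.11 (SE, 95% interval -2.90 to -2.33) on S1, with a limma adjusted p of 0.00211. On S2 it was -2.24 ± 0.09 (95% interval -2.47 to -2.005), with a limma adjusted p of 0.00197. A more negative log2 fold change was found for 201 tested probe sets in the case of S1, or 0.585%, and for 352 in the case of S2, or 1.02%. Leaving out ZH11 replicate 1 ended both calls by a narrow margin (limma adjusted p = 0.055 on S1 and 0.0511 on S2), and so did leaving out ZH11 replicate 2 (0.0527 and 0.0507), while the log2 fold changes of the 4 fits with 1 array left out stayed between -2.63 and -2.60 on S1 and between -2.28 and -2.20 on S2.

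The 2 probe sets of BC1L9 differed in the fitted size of the fall. The log2 ratio of S1 to S2 was -2.09 and -2.15 on the ila1 arrays, against -1.70 and -1.79 on the ZH11 arrays, so the fall was larger on S1 by 0.38 on the log2 scale. The genotypes did not overlap in this ratio, and no test of this difference was run. With 2 arrays against 2 such a gap is common, as 40.6% of single tested probe sets had it with ila1 lower. S2 stayed below the highest signals of any probe set, which were 13980 and 13926 on the ila1 arrays and 13265 and 13621 on the ZH11 arrays. Whether its signal follows transcript amount evenly at that level was not tested.

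**Figure D2:**
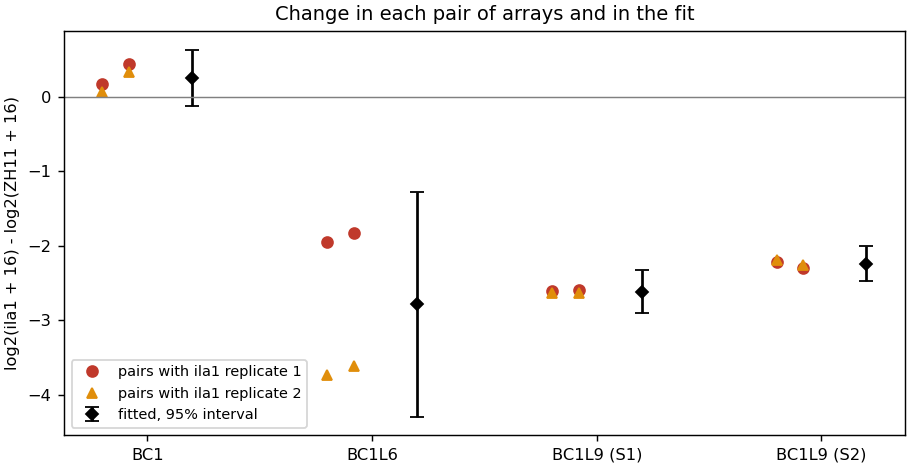
Difference in log2(signal + 16) between an ila1 and a ZH11 array for each of the 4 pairs of arrays (circles for pairs with ila1 replicate 1, triangles for pairs with ila1 replicate 2), beside the fitted log2 fold change with its 95% interval. The pairs of BC1L9 lie close together on each probe set, those of BC1L6 split by ila1 array, and all pairs of BC1 lie above 0 by less than 0.44.

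BC1L6 read 512 and 137 on the ila1 arrays, against 2021 and 1864 on the ZH11 arrays. Both ila1 arrays were well below both ZH11 arrays, and ila1 replicate 2 was the lowest by far. The mean was 325 ± 265 in ila1 and 1943 ± 111 in ZH11 (SD, n = 2 each), and the log2 fold change was -2.78 ± 0.58 (95% interval -4.29 to -1.27, limma adjusted p = 0.0411). On the linear scale that interval spans falls of 2.41-fold to 19.6-fold. The 4 pairs of arrays gave log2 differences of -1.95 and -1.83 with ila1 replicate 1 and of -3.73 and -3.62 with ila1 replicate 2.

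The size of the BC1L6 fall therefore rests on which ila1 array is read. Without ila1 replicate 1 the log2 fold change was -3.67, and without ila1 replicate 2 it was -1.89. The call ended without ZH11 replicate 1 (limma adjusted p = 0.205), without ZH11 replicate 2 (limma adjusted p = 0.213) and with arrays scaled to the hybridization controls (log2 fold change -2.57, limma adjusted p = 0.0509). A more negative log2 fold change was found for 160 tested probe sets, or 0.466%.

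The ila1 arrays differed by 1.78 in log2 signal of BC1L6, a 3.73-fold difference in signal. Only 224 tested probe sets, or 0.652%, differed more between the ila1 arrays, where the median absolute difference over all tested probe sets was 0.178. For BC1L9 the difference between the ila1 arrays was 0.03 on S1 and -0.03 on S2. CESA5 and CESA6, cellulose synthases of the primary wall, were also lower on ila1 replicate 2. CESA5 read 2694 and 705 in ila1, against 2087 and 2108 in ZH11. CESA6 read 1794 and 899 in ila1, against 3325 and 3588 in ZH11. Over all 9 cellulose synthases the summed signal was 15231 on ila1 replicate 1 and 9369 on replicate 2. Among them only CESA4 read higher on replicate 2, at 357 and 372 on its brightest probe set. The brittle culm and secondary wall list, described below, summed to 7439 and 7557. Of its tested genes, IRX9, IRX14, GT43A, GT43H and GH2 read higher on replicate 2. KIN4A, IRX9L, GT43E, GT43G and GLU1 read lower there. Of the green mesophyll list of 16 symbols, 2 genes had a probe set, RBCS and CAB2R. Their summed signal was higher on ila1 replicate 2, at 13422 on replicate 1 and 19809 on replicate 2. On the ZH11 arrays it was 17671 and 18411. The part of cell or tissue make-up in the BC1L6 values was not tested.

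**Figure D3:**
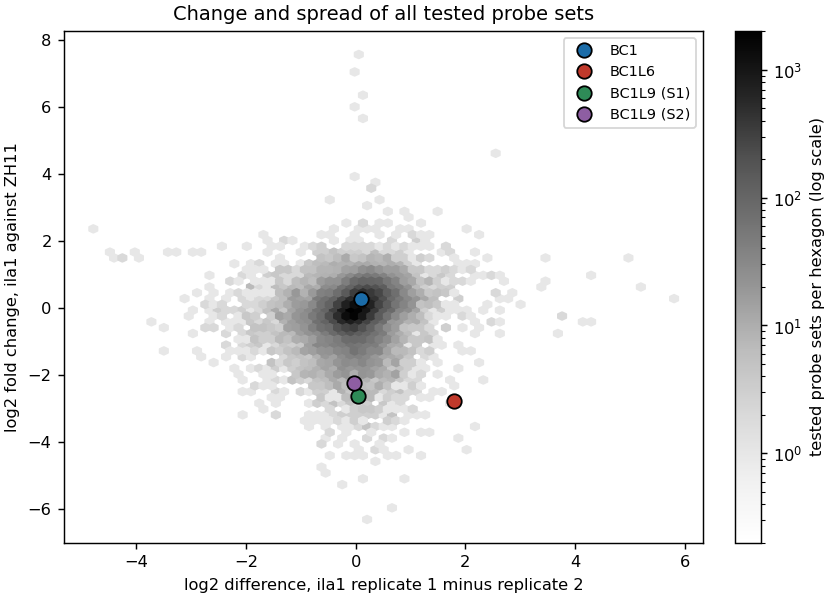
Log2 fold change of ila1 against ZH11 (vertical axis) against the log2 difference of ila1 replicate 1 minus replicate 2 (horizontal axis) for all 34354 tested probe sets, shaded by their number per hexagon on a log scale, with the COBRA-like probe sets as coloured points. BC1L9 lies low at a difference near 0 between the ila1 arrays, BC1L6 lies low and far to the right at 1.78, and BC1 lies in the dense middle.

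BC1, the family member of the brittle culm mutant, read 229.6 and 213 on the ila1 arrays, against 202 and 165 on the ZH11 arrays. The genotypes did not overlap, with the ila1 arrays higher by a small margin, as was the case for 26.5% of all tested probe sets. The mean was 221 ± 11.6 in ila1 and 184 ± 25.8 in ZH11 (SD, n = 2 each). The log2 fold change of 0.26 ± 0.15 did not pass (limma adjusted p = 0.278), and its 95% interval of -0.13 to 0.64 covers ratios of 0.916-fold to 1.56-fold. The fitted falls of BC1L6 and BC1L9 lie outside that interval. BC1 kept its positive sign in every alternative, from 0.12 without ZH11 replicate 2 to 0.46 with arrays scaled to the hybridization controls, and passed in none. The median of all tested probe sets was -0.07 on the deposited scale and 0.12 under that scaling, and relative to that median BC1 read 0.33 as deposited and 0.34 after the scaling.

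**Figure D4:**
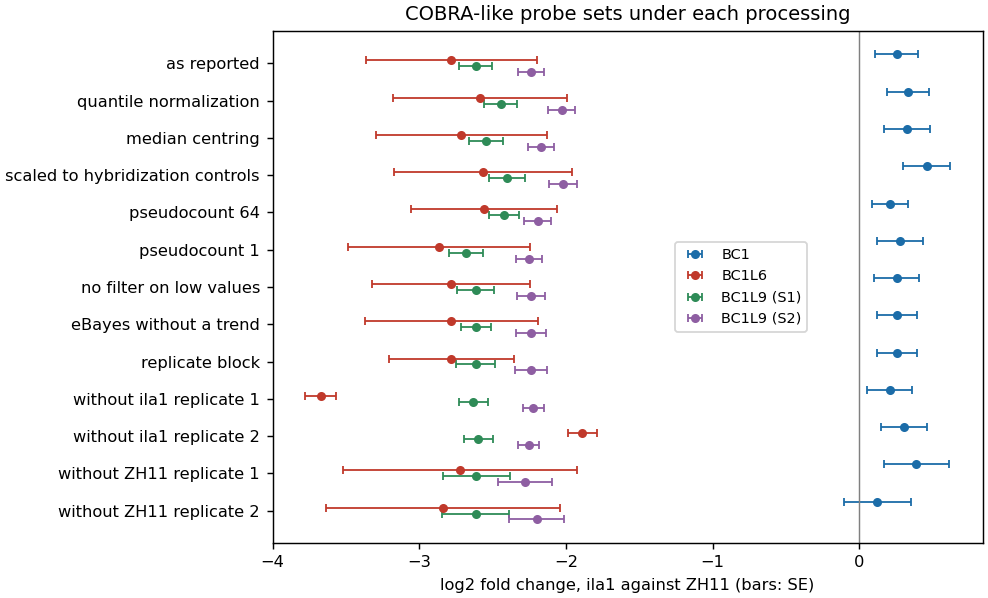
Log2 fold change of ila1 against ZH11 with its SE for each COBRA-like probe set under the reported processing (top row) and 12 alternatives. BC1L9 and BC1 keep their place in every row, and BC1L6 moves to -3.67 or -1.89 when ila1 replicate 1 or 2 is left out, where its SE comes from the ZH11 pair.

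The other gene with the synonym BC1, bHLH081, read 19.7 and 26.6 on the ila1 arrays, against 56.8 and 37.6 on the ZH11 arrays, and fell under the filter on low signals. With no filter its log2 fold change was -0.68 ± 0.17 (limma adjusted p = 0.0702). It and COBRA-like BC1 thus lay on opposite sides of 0, and neither passed.

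The changes of the 3 genes were compared within each array, since levels of different probe sets cannot be set against each other, with S2 standing for BC1L9 as its brighter probe set. The log2 ratio of BC1L6 to BC1 was 1.10 and -0.58 on the ila1 arrays, against 3.23 and 3.37 on the ZH11 arrays, a difference in log2 fold change of -3.04. The log2 ratio of BC1L9 to BC1 was 2.27 and 2.40 on the ila1 arrays, against 4.66 and 5.005 on the ZH11 arrays, a difference of -2.49. Neither ratio overlapped between the genotypes, both being lower on each ila1 array than on either ZH11 array. For single tested probe sets the same held in 40.6%, and the share among ratios was not counted. The log2 ratio of BC1L6 to BC1L9 was -1.17 and -2.98 on the ila1 arrays, against -1.44 and -1.63 on the ZH11 arrays, so here the ZH11 arrays lay between the ila1 arrays. In the two-sided exact permutation test over the 6 ways to arrange the arrays, p was 0.333 for each of the comparisons with BC1 (0.5 adjusted over the 3 pairs) and 1 for BC1L6 against BC1L9. The smallest p this test can give with 2 arrays against 2 is 0.333, so it could not have passed whatever the values, and its p-values say nothing for or against a difference.

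By profile over the 4 arrays, with each probe set set to its ZH11 mean and 2141 named genes compared, the genes closest to BC1L9 were EXLA2, HSF07 and MPK7 for S1, and WRKY62, GH3-8 and GLU11 for S2. EXLA2, an expansin-like gene, differed from S1 by 0.0199 (root mean square log2 difference), HSF07, a heat stress transcription factor also called HSFA3, by 0.0373 and MPK7, a MAP kinase, by 0.073. WRKY62, a WRKY transcription factor, differed from S2 by 0.0286, GH3-8, an enzyme that joins auxin to amino acids, by 0.0335 and GLU11, of the endo-1,4-beta-glucanase family, by 0.0588. The 2 probe sets of BC1L9 differed from each other by 0.269, more than from these genes. The likeness is one of size and direction over 4 arrays and no more than that.

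No named gene lay as close to BC1L6. The nearest were PSS2 at 0.405, the JAZ repressor gene JAZ13 at 0.463 and the kinesin gene KIN8B at 0.476, and BC1L9 lay at 0.631 on S1. PSS2 read 233 and 124 in ila1 and 963 and 1216 in ZH11, which shares with BC1L6 the lower value on ila1 replicate 2. For BC1 the nearest were CASPL1U3 at 0.0261, the RNA helicase gene RH10 at 0.0349 and eIF3k, a subunit of a translation initiation factor, at 0.0361, at log2 fold changes of 0.24 to 0.28 that did not pass (eIF3k passed under quantile normalization, limma adjusted p = 0.0411, and without ila1 replicate 2, limma adjusted p = 0.0176).

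Of the rest of the COBRA-like family, BC1L2 and BC1L7 were the named genes found in the tables. In the RefSeq table BC1L2 lies next to BC1 and BC1L7 next to BC1L6. BC1L2 read 21.0 and 20.6 on the ila1 arrays, against 22.6 and 21.2 on the ZH11 arrays, under the filter on low signals. BC1L7 has no probe set of its own in the probe-gene table and was not analysed here. Probe sequences were not used here, so how far the BC1L6 probe set may also read BC1L7 was not tested.

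Other genes of the cell wall were described by lists of symbols. Of 9 cellulose synthases 0 passed in limma (1 had an unadjusted p under 0.05), where 15.2% of all tested probe sets were called, so that a count of 0 in so short a list says little. The list had a median log2 fold change of -0.11, against -0.07 over all tested probe sets. CESA4, CESA7 and CESA9, which make the cellulose of the secondary wall and mark cells with such walls, read log2 fold changes of -0.21 ± 0.12, -0.08 ± 0.13 and 0.20 ± 0.17, and their summed signal was 773 and 718 on the ila1 arrays and 796 and 806 on the ZH11 arrays. CESA6 was nearest to a call, at -1.43 ± 0.33 (limma adjusted p = 0.0511). It passed with no filter on low values (limma adjusted p = 0.0439) and with the replicate number as a block (limma adjusted p = 0.0471). Without ila1 replicate 1 it read -1.92 and without ila1 replicate 2 -0.94, and CESA5 turned from -1.55 to 0.36 between those fits.

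The brittle culm and secondary wall list asked for 41 symbols, which matched 14 genes, 11 of them with a probe set. Symbols such as BC3, BC10 and KOR1 matched no gene, so the counts cover only part of the list. Of 10 tested genes, 5 were called lower and 0 higher. Over all tested probe sets 10.4% were called lower and 4.77% higher. The list's median log2 fold change was -0.60, against -0.07 over all tested probe sets. The tested part is mostly made of GT43 genes, the glycosyltransferase family that builds the xylan backbone, with 7 of the 10. Of these 7, 4 were called lower, against 1 of the other 3. GT43G was 3.69-fold lower (limma adjusted p = 0.00432) and GT43H 2.11-fold lower (limma adjusted p = 0.0109). IRX9 and IRX14 of the GT43 family fell by 0.80 and 0.69 on the log2 scale, and the call of IRX14 ended under quantile normalization (limma adjusted p = 0.0597) and when the arrays were scaled to hybridization controls (limma adjusted p = 0.055). The 3 GT43 genes that did not pass were IRX9L at -0.48 ± 0.12 (limma adjusted p = 0.0578), GT43A at -0.07 ± 0.13 (limma adjusted p = 0.71) and GT43E at 0.09 ± 0.18 (limma adjusted p = 0.755). IRX9L ran from -0.54 to -0.41 with 1 array left out. GLU1, an endo-1,4-beta-glucanase that rice needs for cellulose synthesis and cell elongation, read 897 and 677 in ila1 and 2245 and 2578 in ZH11, and was 3.05-fold lower (limma adjusted p = 0.00844). KIN4A, a kinesin that orders cellulose microfibrils and is itself behind a brittle culm mutant, read 0.13 ± 0.12 and did not pass, nor did GH2, a cinnamyl alcohol dehydrogenase of lignin synthesis, at -0.50 ± 0.14 (limma adjusted p = 0.0804). All 5 calls ended when either ZH11 array was left out.

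**Figure D5:**
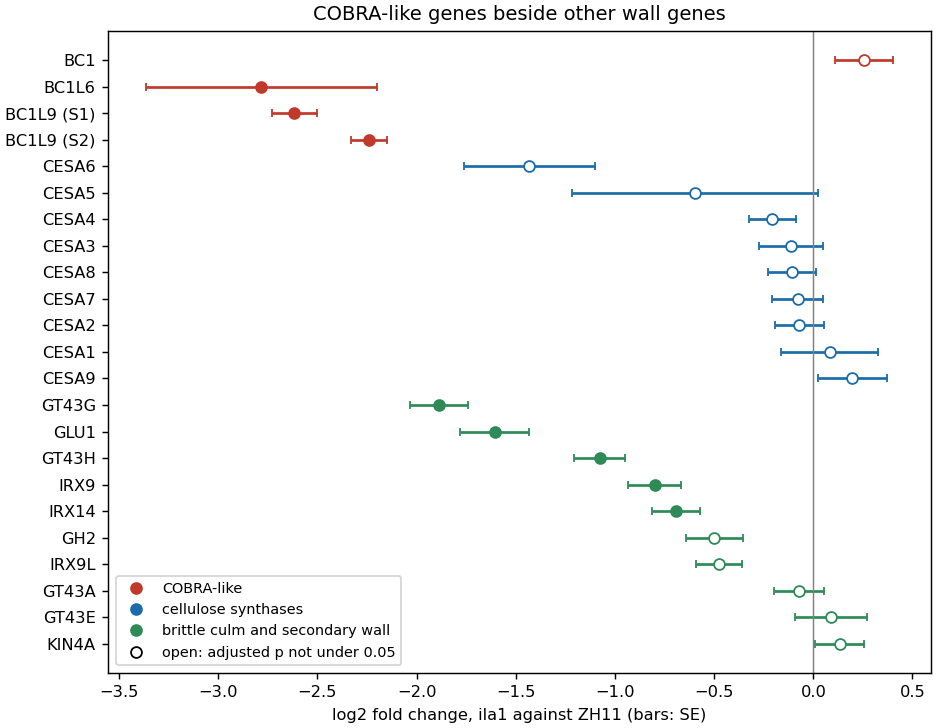
Log2 fold change of ila1 against ZH11 with its SE for the COBRA-like probe sets (red), the cellulose synthases (blue) and the tested genes of the brittle culm and secondary wall list (green); filled points passed at a limma adjusted p under 0.05. BC1L6 and BC1L9 lie below every other gene drawn, BC1 lies on the positive side with KIN4A, GT43E, CESA1 and CESA9, and no cellulose synthase is filled.

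The list of secondary wall regulators asked for 19 symbols, for which 3 genes had a probe set and 2 were tested. The symbol SPL7 is shared by 2 genes, of which the heat stress factor gene HSFA4D had a log2 fold change of -1.02 (limma adjusted p = 0.0291, but 0.0599 under quantile normalization and 0.0601 scaled to hybridization controls) and the other read -0.06. That call also ended when either ZH11 array was left out. Which of the 2 SPL7 genes the list meant was not settled, so the call says nothing certain of wall regulators. NAC7 lay under the filter. Marker lists of other cell types held no called gene, where 15.2% of all tested probe sets were called. With 1 to 4 tested genes in each list, that says little. The summed signal of the dividing-cell list, 7 genes of which 4 were tested, was 975 and 869 in ila1 and 785 and 804 in ZH11. It was carried mostly by PCNA at 0.33 ± 0.13 (limma adjusted p = 0.142). The tested genes CYCA2;1 and CDKB2;1 went the other way, at -0.15 ± 0.12 and -0.14 ± 0.11, and did not pass. B-type cyclins CYCB2;1 and CYCB2;2 read 56.1 or less on every array. The symbol CYCB1;1 was matched by 2 genes, both counted in the list and both under the filter on low signals. The first read 12.8 and 9.11 in ila1 and 7.51 and 11.4 in ZH11. The second read 18.6 and 17.5 against 26.6 and 29.1 (limma adjusted p = 0.0596 with no filter). Which of them the list meant was not settled. The pollen list had 1 gene with a probe set, C6 at -0.21, which did not pass. The epidermis list also had 1, found by the symbol WSL3 at 0.29, which did not pass either. That symbol is ambiguous, and the gene found may not be the wax gene meant by the list, so the value says nothing certain of epidermis.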

How the data were processed

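The authors deposited a linear intensity for each probe set on each of the 4 arrays. Per the labels' protocols, TRIzol was used for extraction and biotinylated cRNA was made by Affymetrix's standard procedure. How scans became intensities, scaling included, is not given in the sources used here. For this report 123 Affymetrix controls were left out, 16 was added and log2 taken, so fold changes of low signals are understated. Probe sets in the lowest 40% by mean signal over all 4 arrays were not tested. The test was limma 3.58.1, run in R 4.3.3 (lmFit, eBayes with a trend, two-sided, genotype only), adjusted by Benjamini-Hochberg over 34354 probe sets at a threshold of 0.05. The fit was tested on simulated data.

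Names came from the platform annotation (22436 probe sets with 1 gene, 95 with several, the rest unnamed here) and the RefSeq table of assembly ASM3414082v1, which held all 17905 genes. Where several probe sets read a gene of a list, the brightest stands for it, and ambiguous symbols are named as such. The members, the lists and the rule for named genes (up to 4 examples per list by smallest p, and the 3 named genes of nearest profile) were chosen with earlier results of these data known. GDD1 is given as KIN4A. The main fit did not pair arrays by replicate number, since the labels name no shared batch. Deviations of same-numbered arrays correlated at 0.0878, which cannot show whether those arrays shared a batch.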

Additional observations from a re-analysis of the deposited data

How the results depend on the processing

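The log2 fold changes of BC1, BC1L6 and BC1L9 kept their sign in all 12 alternatives. Scaled to 27 hybridization control probe sets, BC1L6 read -2.57 and missed the threshold. With 1 array left out, the log2 fold change was 0.12 to 0.39 for BC1, -3.67 to -1.89 for BC1L6, -2.63 to -2.60 for BC1L9 S1 and -2.28 to -2.20 for BC1L9 S2. Each such fit takes the spread of a lone array from the other genotype's pair. The calls over the array were 5223, with 1640 higher and 3583 lower in ila1. They ran from 34 to 14835 with 1 array left out, from 6 to 6411 for higher and from 28 to 8424 for lower. The fewest came without ZH11 replicate 1, and without ZH11 replicate 2 there were 122, without ila1 replicate 1 10580 and without ila1 replicate 2 14835. Quantile normalization gave 2965 higher and 2887 lower, and scaling to the hybridization controls 3355 higher and 2395 lower. The count of cellulose synthases called lower was 1 with no filter and 1 under the replicate block, instead of 0. With 1 array left out it ran from 0 to 4, and the count called higher from 0 to 3. The count of brittle culm and secondary wall genes called lower ran from 0 to 7 there, with 0 when either ZH11 array was left out. The difference between BC1L6 and BC1L9 reversed to 0.37 without ila1 replicate 2 and ran from -1.45 to 0.37 with 1 array left out. Under the replicate block 4800 probe sets were called, and BC1L6 (limma adjusted p = 0.0273) and both BC1L9 probe sets (0.00663 and 0.0066) kept their calls. The causes of these shifts were not tested. Depth is unknown for array signals, and values near the filter, such as those of BC1L2 and bHLH081, carry little information.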
